A study of Mus musculus with 2 samples.

Results

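Eomes-negative, Gzmc-positive ILC1-like cells were gated as innate lymphocytes. They had RNA of the NK-lineage receptor genes Ncr1 or Klrb1c and of granzyme C. No RNA was captured in them of Eomes, the transcription factor that defines conventional NK cells. They were chosen from raw counts of unique molecular identifiers (UMIs, each standing for 1 captured RNA molecule). A cell had to hold at least 1 UMI of Ncr1 or Klrb1c, 0 of Eomes, at least 2 of Gzmc, at most 1 over Cd3d, Cd3e and Cd3g, 0 of the B cell gene Cd79a and at most 1 over the phagocyte genes C1qa, C1qb and Csf1r. This gave 174 of 11197 kept cells, 80 in the library labelled Tdg_KO and 94 in the library labelled Tdg_WT. Because Eomes, Gzmc and the other genes of the gate chose the cells, their levels are given below as a description.

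Mouse group 1 innate lymphoid cells comprise NK cells and type 1 innate lymphoid cells (ILC1), which share the transcription factor T-bet (Tbx21), the receptor NKp46 (Ncr1) and interferon-gamma. NK cells circulate, depend on Eomes, carry Ly49 receptors and kill with perforin and granzymes, whereas ILC1 stay in tissue, carry the collagen receptor chain CD49a (Itga1), CXCR6 and the death ligand TRAIL (Tnfsf10), and form without Eomes. In mice, granzyme C has served as a marker of killer ILC1, and in tumours TGF-beta can give NK-lineage cells ILC1 features.

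Single-cell RNA was measured in tumour allografts taken from mice at day 14 after inoculation. The Tdg_KO group is titled KPT with the genotype Tdg KO, the Tdg_WT group is titled KP with the genotype WT, and each has 1 library of live CD45-positive cells sorted after Percoll enrichment. Thymine DNA glycosylase, the product of Tdg, repairs mismatched bases in DNA and also takes part in the removal of cytosine methylation. The labels do not say whether the tumour cells, the host or both carry the genotype, how many animals were pooled, or what else the groups share.

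The libraries held 5896 barcodes with 52586319 UMIs (Tdg_KO) and 5604 barcodes with 39819010 UMIs (Tdg_WT). After a minimum of 200 genes and a maximum of 10% mitochondrial UMIs, 5693 and 5504 cells remained in Tdg_KO and Tdg_WT, with medians of 6419 and 5378 UMIs. The libraries shared 8 cell barcodes, 0 of them among the ILC1-like cells. With 1 library per genotype, no test between genotypes was possible. All intervals are exact 95% counting intervals (Katz for ratios of shares), which cover counting error only and not differences between animals or libraries. For gene ratios they treat every UMI as independent, so the spread between cells is left out too. A ratio without the top cells can therefore lie outside its interval.

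Within the ILC1-like cells Tdg itself had 9 UMIs in 6 Tdg_KO cells and 17 UMIs in 16 Tdg_WT cells, a level of 11.4 and 17.4 CPM (the gene's UMIs per 1000000 UMIs summed over the group of cells). The ratio of 0.654 had an interval of 0.257 to 1.55. In Eomes-positive NK cells Tdg was at 21.5 CPM in Tdg_KO and 23.3 in Tdg_WT. The kit named in the labels' protocols tags the 3′ end, which need not lie in a deleted part, so these values do not check the label.

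Among the 785 Tdg_KO and 712 Tdg_WT cells that passed the same gate whatever their Eomes and Gzmc counts, the ILC1-like cells made up 10.2% in Tdg_KO (8.16 to 12.5) and 13.2% in Tdg_WT (10.8 to 15.9). The ratio of these shares was 0.772, and its counting interval of 0.583 to 1.02 includes 1. With 1 library per genotype, a difference between genotypes could not be tested. Of all kept cells they were 1.41% in Tdg_KO and 1.71% in Tdg_WT, a ratio of 0.823 (0.612 to 1.11). NK cells with at least 1 Eomes UMI numbered 462 and 396 in Tdg_KO and Tdg_WT, and cells with 0 Eomes and 0 or 1 Gzmc UMI numbered 243 and 222. The sort, the Percoll step and, through the gate, depth act on all these shares. With each cell thinned to 2000 UMIs before the gate, ILC1-like cells were 61 of 656 in Tdg_KO and 54 of 536 in Tdg_WT. The ratio of shares was then 0.923.

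The ILC1-like cells were deep for this gate, with medians of 9834 UMIs in Tdg_KO and 9728.5 in Tdg_WT, against 5488.5 and 5317 in Eomes-positive NK cells. Cells ranged from 3260 to 25579 UMIs in Tdg_KO and from 3039 to 30621 in Tdg_WT. All levels below are CPM, and a ratio compares the CPM of 1 gene between groups of cells.

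Granzyme C, a granule serine protease, averaged 4672 CPM in Tdg_KO and 6735 in Tdg_WT ILC1-like cells. Eomes-positive NK cells had 144 in Tdg_KO and 161 in Tdg_WT, and the Eomes-negative cells with 0 or 1 Gzmc UMI had 17.0 and 19.2. Counts per cell ranged from 2 to 312 UMIs with a median of 29.5 in Tdg_KO, and from 2 to 1031 with a median of 28 in Tdg_WT. Single cells thus spread widely, and the cell with the most Gzmc held 8.44% of all its UMIs in Tdg_KO and 15.7% in Tdg_WT.

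Gzmc lies on the minus strand of chromosome 14 at chr14:56231441-56234656 (GRCm38, identifier ENSMUSG00000079186 in the files), in a row of granzyme genes from Gzme to Gzmb that spans 144635 bases. Gzmc, which the gate requires, was in every ILC1-like cell, whereas Gzmd, Gzme and Gzmf were each found in few. Summed levels of these 4 genes were lower in Tdg_KO than in Tdg_WT, for Gzmc by less than 1.5-fold. For this reason the 250 bases before the start of Gzmc and of Gzmd, Gzme and Gzmf of the same row are printed. They are from RefSeq (GRCm38.p6), 5′ to 3′ on the minus strand, at chr14:56234658-56234907 (Gzmc), chr14:56132594-56132843 (Gzmd), chr14:56120626-56120875 (Gzme) and chr14:56211408-56211657 (Gzmf). Capitals mark matches to the RUNX motif AACCACA and the cyclic AMP response element (CRE) TGACGTCA.
Gzmc: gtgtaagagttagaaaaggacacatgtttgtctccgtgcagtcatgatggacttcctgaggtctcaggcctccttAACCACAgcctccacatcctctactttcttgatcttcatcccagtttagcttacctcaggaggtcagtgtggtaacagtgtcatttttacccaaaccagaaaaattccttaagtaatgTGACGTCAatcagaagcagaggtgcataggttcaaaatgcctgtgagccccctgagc
Gzmd: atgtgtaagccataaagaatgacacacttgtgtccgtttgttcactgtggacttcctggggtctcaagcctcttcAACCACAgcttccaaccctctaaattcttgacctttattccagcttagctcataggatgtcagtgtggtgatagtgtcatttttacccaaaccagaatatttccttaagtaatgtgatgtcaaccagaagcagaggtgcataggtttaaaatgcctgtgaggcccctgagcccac
Gzme: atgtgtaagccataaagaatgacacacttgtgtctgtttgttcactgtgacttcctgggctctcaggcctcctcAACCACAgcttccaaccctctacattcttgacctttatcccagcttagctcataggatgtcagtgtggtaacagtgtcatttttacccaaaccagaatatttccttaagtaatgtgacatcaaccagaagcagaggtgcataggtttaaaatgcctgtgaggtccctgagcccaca
Gzmf: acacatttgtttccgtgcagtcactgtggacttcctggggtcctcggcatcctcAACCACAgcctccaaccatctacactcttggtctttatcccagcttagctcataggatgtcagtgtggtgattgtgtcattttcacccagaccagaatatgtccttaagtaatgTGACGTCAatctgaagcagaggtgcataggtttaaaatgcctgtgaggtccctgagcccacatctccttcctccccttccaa
The RUNX letters stand once in each window, 175 bases before the start in Gzmc and Gzmd, 176 in Gzme and 196 in Gzmf, and they occur on either strand in 4.4% of 32851 such RefSeq windows. The CRE letters stand in the windows of Gzmc (57 bases before the start) and Gzmf (82) and in 1.55% of all windows. The T-box letters AGGTGTGA were in none of the 4 windows and in 1.12% of all. Windows of Gzmd and Gzme were 94.8% identical, and that of Gzmc was 81.3% identical to Gzmd. A match of letters is a description and does not show binding.

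Levels of the 4 marker genes of the label are given here as a description. Klrb1b, which encodes an inhibitory NKR-P1 receptor, was at 637 CPM in Tdg_KO and 656 in Tdg_WT ILC1-like cells, against 264 and 256 in Eomes-positive NK cells. Ncr1, 1 of the genes of the gate, was at 342 and 341, against 273 and 278 in NK cells, and Tmem176b, a membrane channel protein gene also known from other innate lymphoid cells, at 395 and 361 against 21.5 and 17.0. Eomes-negative cells with 0 Gzmc UMIs had Klrb1b at 550 CPM in Tdg_KO and 535 in Tdg_WT, and Tmem176b at 152 and 132. Their Ncr1, at 361 and 335, was close to even with the ILC1-like cells. With Gzmc, which the gate sets, all 4 markers were above NK cells in each library. Tmem176b was found in 77.5% of Tdg_KO and 72.3% of Tdg_WT ILC1-like cells. After thinning each cell to 2000 UMIs these shares were 56.3% and 55.3%, against 2.18% and 1.28% of the 458 and 390 NK cells with that many UMIs. The 92 Tdg_KO and 136 Tdg_WT cells with at least 2 Cd79a UMIs and 1 Ms4a1 UMI (B cells), which should lack Tmem176b, had it in 3.26% (Tdg_KO) and 2.94% (Tdg_WT) of cells at medians of 3546.5 and 3647 UMIs.

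Several defining genes of other lymphoid lineages were at 0 in all 174 cells. These were Il1rl1, Il5, Il13 and Il17rb of type 2 innate lymphoid cells, Il22, Il17a, Il17f, Il23r and Il1r1 of type 3 cells, and Cd79a (fixed at 0 by the gate), Ms4a1, Iglc2 and Pax5 of B cells. The 10 ILC2 genes summed to 152 CPM in Tdg_KO and 118 in Tdg_WT ILC1-like cells, against 143 and 165 in NK cells. The 9 ILC3 genes summed to 451 and 466, against 317 and 330. The 10 B cell genes summed to 538 and 1012, against 246 and 278, with Cd74 (292 and 879, against 110 and 161) and Ighm (184 and 127, against 123 and 112) holding most of it. Cd74 was the only 1 of 2 measured B cell genes at least 1.5-fold higher in both libraries. Most of the ILC3 sum was Ncr1, a gene of the gate whose levels are given above. Kit, the stem cell factor receptor, made up a smaller part, at 92.2 and 104 CPM, against 39.5 and 50 in NK cells.

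T cell genes were present in part. A single Cd3 UMI, the most the gate allows, was found in 11 Tdg_KO and 14 Tdg_WT ILC1-like cells. The 15 T cell genes summed to 1467 CPM in Tdg_KO and 1340 in Tdg_WT, against 1326 and 1291 in NK cells. The constant-region genes differed in direction. Trbc2 was at 459 and 479 against 257 and 225 in NK cells, Trac at 7.58 and 12.3 against 32.2 and 32.6, and Trdc at 7.58 and 8.19 against 57.5 and 56.0. Tcrg-C4, a gamma chain constant gene, was 19.3-fold higher than in NK cells in Tdg_KO and 35.3-fold in Tdg_WT (114 and 120 against 5.89 and 3.39 CPM). The part of T cells in these values was not tested.

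Compared with Eomes-positive NK cells, the ILC1-like cells had higher levels of most tissue-resident innate lymphoid genes measured and lower levels of most conventional NK genes, the Ly49 receptors among them. Each library was compared on its own, over 5743 genes with at least 50 UMIs in both groups together in each library and with the genes of the gate left out. Of these, 6.2% were at least 1.5-fold higher in the ILC1-like cells in both libraries (356 genes) and 8.74% at least 1.5-fold lower in both (502 genes). The median log2 ratio of all genes was -0.0027 in Tdg_KO and -0.0085 in Tdg_WT. Both groups were cut on RNA of the same cells, so the differences are described without a test. Summed over 25 tissue-resident genes (gate genes included), ILC1-like cells had 9310 CPM in Tdg_KO and 8033 in Tdg_WT, and NK cells 4804 and 4554. Eomes-negative cells with 0 or 1 Gzmc UMI had 7560 and 7742, so much of this rise was not particular to the ILC1-like cells. For 24 conventional NK genes, sums in the same order of groups were 3200 and 3041, 21847 and 27356, and 14189 and 17918.

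Of 20 measured tissue-resident ILC genes, 13 were at least 1.5-fold higher in both libraries and 0 at least 1.5-fold lower. Their median log2 ratio was 1.57 in Tdg_KO and 1.75 in Tdg_WT. Cxcr6, a chemokine receptor that holds lymphocytes in tissue, was at 173 (Tdg_KO) and 134 (Tdg_WT) CPM in ILC1-like cells, against 11.4 and 4.66 in NK cells. Its ratios were 15.1 (10.3 to 22.9) in Tdg_KO and 28.8 (15.6 to 59.0) in Tdg_WT. Itga1 was at 203 and 113, against 28.8 and 23.3 in NK cells, and Tnfsf10 at 120 and 89.0, against 22.2 and 19.9. ILC1-like levels of these 3 genes lay above NK levels in each library.

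Tmem176b and its neighbour Tmem176a were 18.4-fold and 16.4-fold higher than in NK cells in Tdg_KO, and 21.3-fold and 20.4-fold higher in Tdg_WT. The annotated genes overlap by 578 bases at their 5′ ends on opposite strands of chromosome 6, and strand use in the counting is not given in the sources used here. Rora, a nuclear receptor required for innate lymphoid development, was at 625 and 547 CPM against 90.4 and 93.7 in NK cells. Inpp4b, a phosphoinositide phosphatase, was 9.65-fold and 12.1-fold higher in Tdg_KO and Tdg_WT, and Gpr183, the oxysterol receptor EBI2, 7.34-fold and 7.12-fold. Ltb (lymphotoxin beta), Kit and Il7r were 2.09-fold to 3.95-fold higher, the creatine kinase Ckb 6.87-fold and 13.9-fold, and Rgs1, a brake on chemokine receptor signals, 1.56-fold and 1.67-fold. Cd69 and Car2 of the same list stayed under 1.5-fold in either direction, with Cd69 ratios of 0.745 in Tdg_KO and 0.743 in Tdg_WT.

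Of 21 measured conventional NK genes, 18 were at least 1.5-fold lower in both libraries and 0 at least 1.5-fold higher, with median log2 ratios of -2.02 in Tdg_KO and -3.11 in Tdg_WT. Ccl5, a chemokine of cytotoxic lymphocytes, was at 347 and 484 CPM, against 9486 and 13309 in NK cells. Its ratios were 0.0366 in Tdg_KO and 0.0364 in Tdg_WT. Gzma, a tryptase of NK granules, was at 575 and 888, against 5716 and 7144 (ratios 0.101 and 0.124). Cma1, a chymase gene, had 0 UMIs in the ILC1-like cells of either library and 71.0 (Tdg_KO) and 84.4 (Tdg_WT) CPM in NK cells. Itgam and Itga2, integrin chains of mature NK cells, had ratios of 0.125 and 0.168 in Tdg_KO and 0.0961 and 0.0706 in Tdg_WT. S1pr1, the sphingosine phosphate receptor that leads cells out of tissue, had ratios of 0.123 and 0.149 in Tdg_KO and Tdg_WT, and Klf2, a factor that drives S1pr1, ratios of 0.247 and 0.183.

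All 6 measured Ly49 genes, which encode polymorphic receptors for MHC class I, were at least 1.5-fold lower than in NK cells in both libraries. Klra4 was at 11.4 (Tdg_KO) and 2.05 (Tdg_WT) CPM in ILC1-like cells, against 744 and 629 in NK cells. Its ratio was 0.0153 (0.00698 to 0.0291) in Tdg_KO, and the Tdg_WT ratio of 0.00325 rests on 2 UMIs (0.000394 to 0.0118). Klra5, with under 50 UMIs over both groups in each library, went the other way, at 30.3 and 33.8 against 7.97 and 6.36 CPM.

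Genes that NK cells and ILC1 share were close to even. Of 22 measured, 3 were at least 1.5-fold higher and 2 at least 1.5-fold lower in both libraries, with median log2 ratios of 0.07 in Tdg_KO and -0.11 in Tdg_WT. The 3 were Klrb1b, Klrc1 (the inhibitory chain NKG2A) at 586 and 595 against 233 and 273 CPM, and the activating receptor Cd226 at 224 and 250 against 48.8 and 41.5. The 2 were Klri2 and Klrc2. Tbx21 was at 129 and 96.2 against 84.9 and 91.1, and the interleukin-2 and interleukin-15 receptor chain Il2rb at 1416 and 1091 against 1445 and 1209 (Tbx21 ratios 1.52 in Tdg_KO and 1.06 in Tdg_WT).

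**Figure D1:**
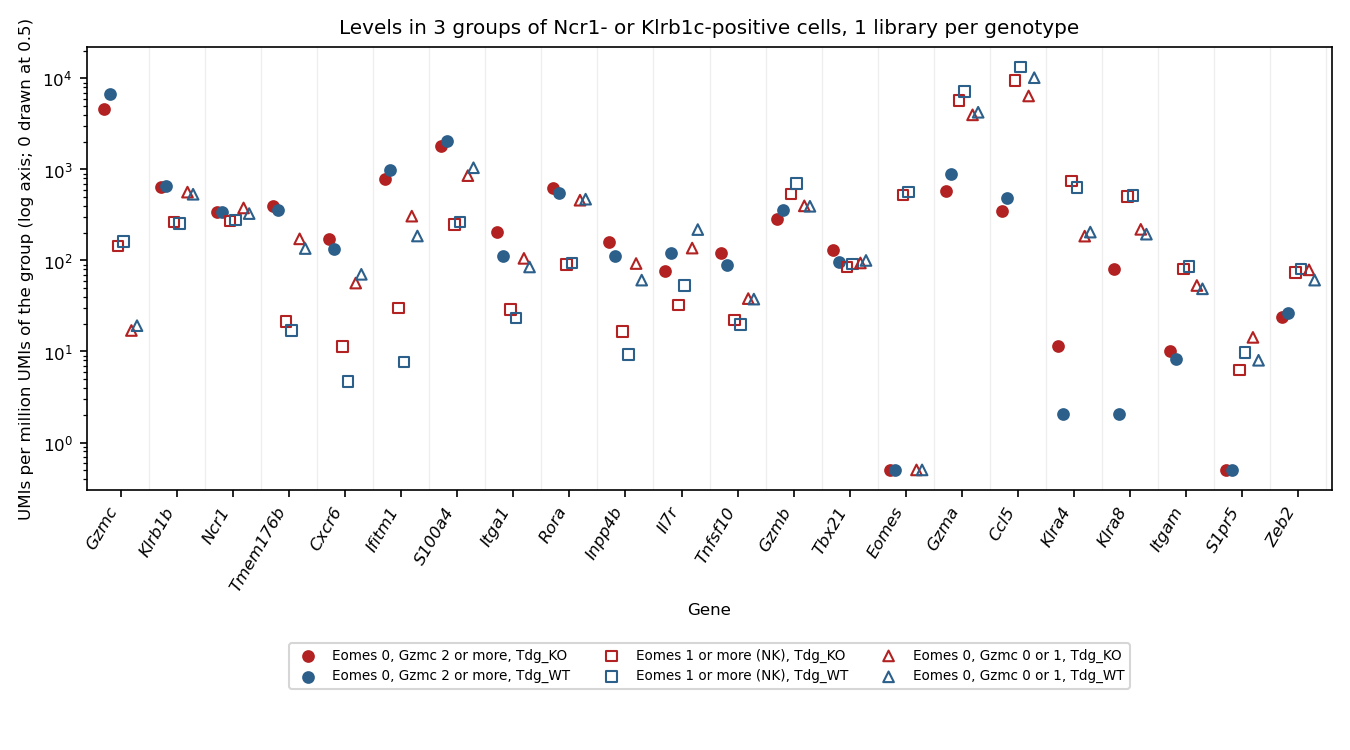
Levels of 22 genes in CPM (log axis, 0 drawn at 0.5) for the Eomes-negative, Gzmc-positive cells (filled circles), Eomes-positive NK cells (squares) and Eomes-negative cells with 0 or 1 Gzmc UMI (triangles), Tdg_KO in red and Tdg_WT in blue, 1 point per library. Tmem176b is at 395 and 361 in the filled circles against 21.5 and 17.0 in NK cells, while Ccl5 is at 347 and 484 against 9486 and 13309, and the triangles lie between for both genes.

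The interferon-induced transmembrane genes, which encode small antiviral membrane proteins, were higher than in NK cells as well. Ifitm1 was at 776 (Tdg_KO) and 980 (Tdg_WT) CPM in ILC1-like cells, against 30.1 and 7.63 in NK cells. The ratios were 25.7 (20.5 to 32.6) and 128 (80.9 to 218). Ifitm2 was 15.3-fold and 28.8-fold higher in Tdg_KO and Tdg_WT, and Ifitm3 13.3-fold and 11.0-fold. Reads of these neighbouring paralogues could be shared in part: 4.27% of 50-base windows from the last 400 bases of Ifitm3 stand in Ifitm1 too. Of 12 measured type I interferon response genes, these 3 with Isg20, Bst2 and Ly6a were at least 1.5-fold higher in both libraries and 0 were lower.

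The rule for named genes also took S100a4, a calcium-binding protein of motile cells, at 1822 and 2068 CPM against 249 and 264 in NK cells. Ctla4, an inhibitory receptor better known from T cells, was at 174 and 166 against 23.9 and 19.1. Krt83, Ccdc184, Sema6d and Igflr1 were 8.63-fold to 18.2-fold higher over both libraries. On the lower side it took the proto-oncogene Myb (ratios 0.0446 in Tdg_KO and 0.0186 in Tdg_WT, on 4 and 2 UMIs), the granzyme inhibitor Serpinb9b (0.0120 and 0.0391, on 1 and 5 UMIs) and the chemokines Ccl3 and Ccl4, with ratios of 0.0570 to 0.0969. Pde2a, Scd2, Gstm1, Phactr3 and As3mt completed the lower side.

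**Figure D2:**
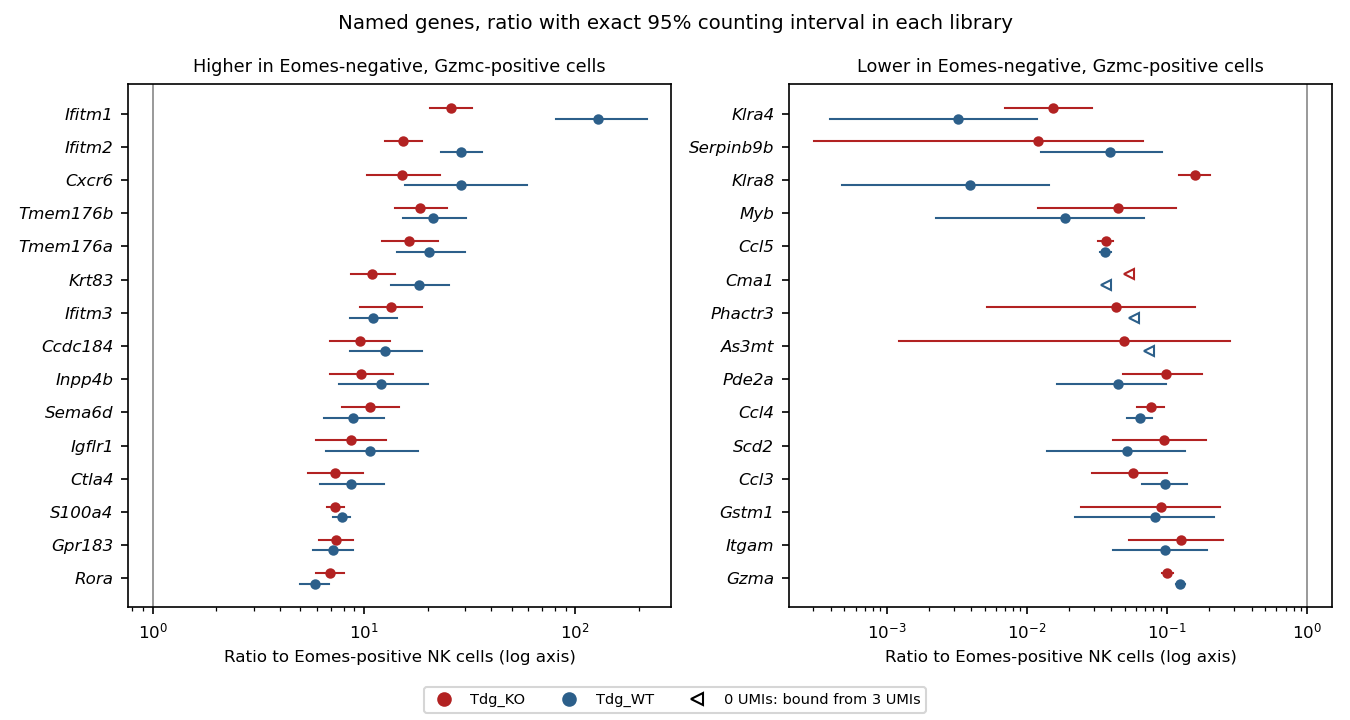
Ratio of the level in Eomes-negative, Gzmc-positive cells to that in Eomes-positive NK cells (log axis) for the 15 named genes in each direction, Tdg_KO in red and Tdg_WT in blue, with exact 95% counting intervals; open triangles are bounds for genes with 0 UMIs. The libraries lie close for most genes, as for Ccl5 (0.0366 and 0.0364), and stand apart for Ifitm1 (25.7 and 128) and Klra8 (0.158 and 0.00396).

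Killing genes were mixed. Of 15 measured, 3 were at least 1.5-fold higher in both libraries and 5 at least 1.5-fold lower. Prf1 (perforin) was at 163 (Tdg_KO) and 177 (Tdg_WT) CPM against 518 and 650 in NK cells, and Gzmb (granzyme B) at 288 and 358 against 536 and 696. Fasl, the ligand of the death receptor Fas, had ratios of 0.558 and 0.448. Tnfsf10, the protease inhibitor Serpinb6a (2.80-fold and 3.40-fold) and Ctsw, a cathepsin of cytotoxic lymphocytes (2.27-fold and 1.92-fold), were the 3 on the higher side.

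Checkpoint and costimulation genes leaned higher, with 8 of 15 at least 1.5-fold higher in both libraries and only Tnfrsf1b lower. Lag3 was at 44.2 and 59.4 CPM in Tdg_KO and Tdg_WT, against 8.31 and 5.51 in NK cells. Cd160 was 4.04-fold and 4.01-fold higher, Nt5e (the ecto-enzyme CD73) 2.29-fold and 2.05-fold, and Tnfrsf18 (GITR) 2.22-fold and 2.06-fold. Among cytokines and growth factors 3 of 12 were higher, which were Ltb, Pdgfa and Tnfsf11 (RANK ligand, 8.89-fold and 6.17-fold). The 4 lower ones were Ccl3, Ccl4, Ccl5 and Pdgfb. Xcl1, the chemokine that attracts cross-presenting dendritic cells, was at 3029 and 2200 CPM against 1971 and 1994 in NK cells.

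Of 11 chemokine and egress receptors, 2 were at least 1.5-fold higher in both libraries (Cxcr6 and Gpr183) and 3 lower, with median log2 ratios of -0.42 in Tdg_KO and -0.29 in Tdg_WT. Cxcr4, the receptor for the retention chemokine CXCL12, was at 145 and 119 CPM, against 531 and 558 in NK cells. Ccr7, the lymph node homing receptor, had ratios of 0.0308 in Tdg_KO (on 2 UMIs) and 1.01 in Tdg_WT. Integrin chains differed in both directions. Itga1, Itgav and Itgb3 (3.71-fold and 4.83-fold) were the 3 of 11 at least 1.5-fold higher in both libraries, and Itga2, Itga4 and Itgam the 3 lower. Of 16 cytokine receptors, Il2ra (4.38-fold and 4.15-fold), Il7r and Il27ra were higher, and Il18rap and Il10ra lower. Of 17 TGF-beta receptor and response genes, 4 were higher and 6 lower, with median log2 ratios of -0.55 in Tdg_KO and -0.65 in Tdg_WT. The 4 were Itga1, Itgav, Nedd9 and Ldlrad4. The 6 included the inhibitory Smad7 (0.465 and 0.491), the receptor Tgfbr1 and Rgs16.

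Transcription factors at least 1.5-fold higher in both libraries were 5 of 34, and 9 were lower. Apart from Rora, the higher ones were Ikzf2 (Helios, 2.13-fold and 3.05-fold), Runx2, Batf and Hif1a, each at least 2.09-fold. The lower ones were Zeb2, a factor of terminal NK maturation (0.327 and 0.330), Klf2, Myb, Runx1, Nfil3, Bach2 and the activation-induced Nr4a1, Nr4a2 and Nr4a3. Of 20 hypoxia and glycolysis genes 5 were higher (Aldoa, Gpi1, Hk2, Slc2a3 and Ddit4) and Pfkp lower. Of 22 handling-stress genes 0 were higher and 6 lower, among them Zfp36 and Dusp1. Of 10 proliferation genes 0 passed 1.5-fold in the same direction in both libraries. Of 16 MHC class I presentation genes, the immunoproteasome subunits Psmb8 and Psmb9 were higher, at 1.59-fold to 1.81-fold.

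Levels in Eomes-negative cells changed with the Gzmc count on both sides of the limit of the gate. Eomes-negative cells just outside it, with 1 Gzmc UMI, numbered 25 in Tdg_KO and 24 in Tdg_WT, and those just inside, with 2 or 3, numbered 12 and 13. Tmem176b was at 338 and 333 CPM just inside and at 300 and 153 just outside. Ccl5 was at 1370 and 1818 just inside, at 1601 and 1637 just outside, and at 7207 and 11848 in cells with 0 Gzmc UMIs. In cells with 50 or more Gzmc UMIs (30 and 36 cells) Ccl5 was at 46.2 and 110. Its largest fall in CPM thus lay between 0 and 1 Gzmc UMI, outside the gate. Between the same bins median depth rose from 5080 to 7561 UMIs in Tdg_KO and from 4718.5 to 7558 in Tdg_WT. Krt83 was at 351 and 279 CPM with 0 Gzmc UMIs and at 327 and 296 with 50 or more. Of the Eomes-positive NK cells, 18 in Tdg_KO and 19 in Tdg_WT had at least 2 Gzmc UMIs.

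**Figure D3:**
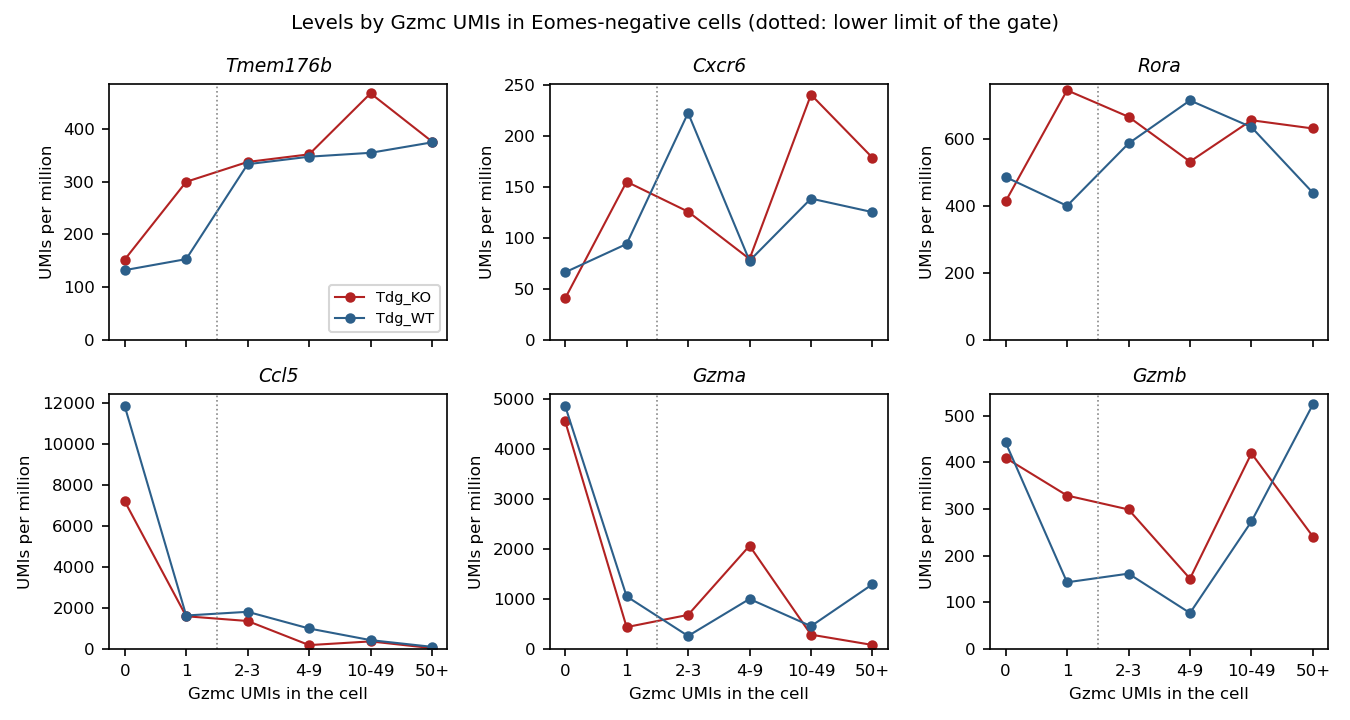
Levels of 6 genes in CPM (axes from 0) by the number of Gzmc UMIs in Eomes-negative cells, Tdg_KO in red and Tdg_WT in blue; the dotted line is the lower limit of the gate. The points at 2 to 3 and 4 to 9 UMIs hold 12 to 14 cells each. Ccl5 is at 7207 and 11848 with 0 Gzmc UMIs and at 46.2 and 110 with 50 or more, while Rora stays between 399 and 745 in all bins of both libraries.

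The ILC1-like cells were not uniform. After thinning to 2000 UMIs per cell, the 12 most variable genes relative to their mean included Gzma, Gzmc, Ccl5, Ifitm1, Xcl1, Ifng and the heat-shock genes Hspa1a and Hspa1b. Gzma was found in 18 of 80 Tdg_KO cells and 16 of 94 Tdg_WT cells, although its summed level was 575 and 888 CPM. Its single highest cell held 37.8% of all its UMIs in Tdg_KO and 24.7% in Tdg_WT. Ccl5 was found in 36.3% and 44.7% of cells, against 12% and 13.2% of B cells, where its level was 31.2 and 34.0 CPM. These shares are at unlike depth, since the ILC1-like cells had medians of 9834 and 9728.5 UMIs and the B cells 3546.5 and 3647. The part of free RNA in the Ccl5 shares was not tested.

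Gzma and Ccl5 tended to be in the same cells, with a Spearman rho across thinned cells of 0.47 in Tdg_KO (80 cells) and 0.49 in Tdg_WT (94 cells). Ifitm1 and Ifitm3 had rho values of 0.49 and 0.39, and Ccl5 and Ifitm1 of -0.24 and -0.30. The cells of a library share its depth and free RNA, so these are descriptions. A grouping chosen after the values were seen shows the same in levels. At least 3 Ifitm1 UMIs were in 17 Tdg_KO cells (21.3%) and 22 Tdg_WT cells (23.4%). In these, Gzma was at 5.52 (Tdg_KO) and 0 (Tdg_WT) CPM and Ccl5 at 11.0 and 19.3. In the other ILC1-like cells Gzma was at 744 and 1208 and Ccl5 at 447 and 651. Gzmc was at 5942 and 7455 in the Ifitm1-high cells and at 4295 and 6476 in the others, and the gate requires Gzmc in both.

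**Figure D4:**
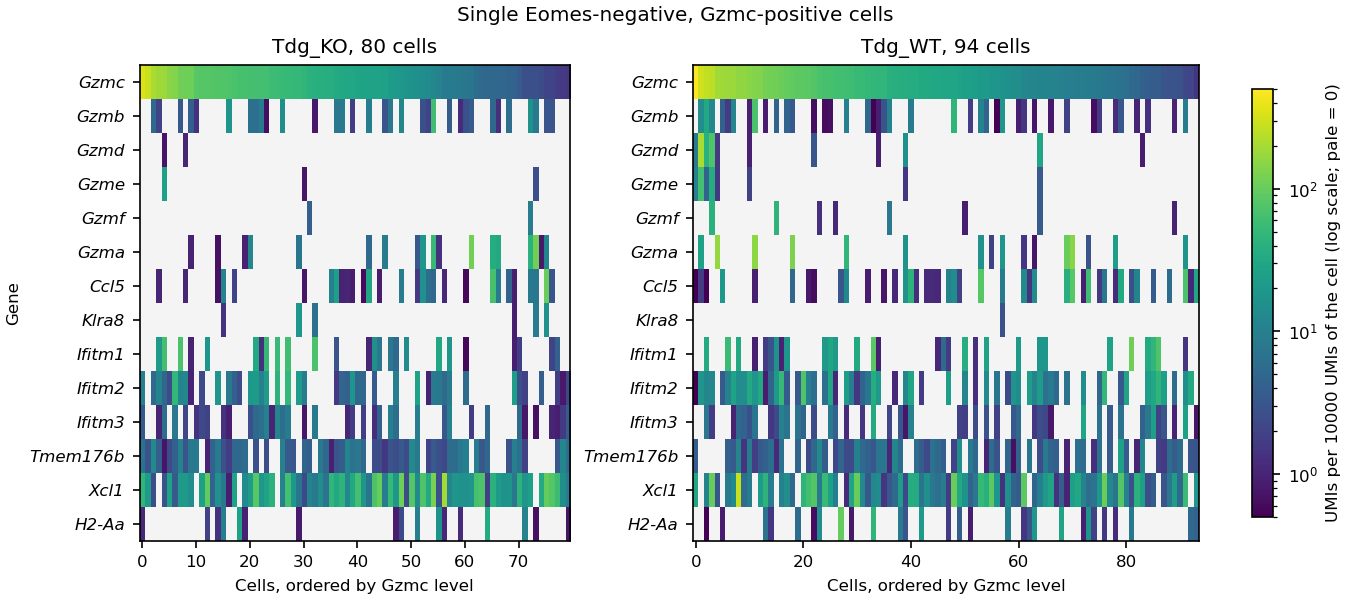
Single Eomes-negative, Gzmc-positive cells as columns, ordered by Gzmc level within each library (80 Tdg_KO cells at left, 94 Tdg_WT cells at right), with 14 genes as rows; colour is UMIs per 10000 UMIs of the cell on a log scale and pale is 0. Gzmd has UMIs in 2 Tdg_KO and 11 Tdg_WT cells, Klra8 in 6 and 1, and Gzma in 18 and 16.

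Most genes differed by less than 1.5-fold between Tdg_KO and Tdg_WT ILC1-like cells. The groups held 791472 UMIs in Tdg_KO and 977114 in Tdg_WT. Of 4136 genes with at least 50 UMIs over both, 6.84% were at least 1.5-fold higher in Tdg_KO (283 genes) and 3.77% at least 1.5-fold lower (156 genes). The median log2 ratio of all genes was 0.06. Scaled by the median ratio of genes in place of total UMIs, 213 genes were at least 1.5-fold higher and 219 lower, so the surplus of higher genes depends on the scaling. None of the 20 tissue-resident genes except Itga1 was at least 1.5-fold higher in Tdg_KO, and of the lower side only Il7r and Socs2 passed. Of 24 genes shared by NK cells and ILC1, 0 passed in either direction, with a median log2 ratio of 0.04.

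Gzmd, Gzme, Gzmf and Gzmg, which lie in the same row of granzyme genes as Gzmc, were lower in Tdg_KO. Gzmc itself had a Tdg_KO over Tdg_WT ratio of 0.694 (0.666 to 0.722) and of 0.753 without its top cell in each library. Since a minimum of Gzmc chose the cells, this is a description. Gzmd, a granzyme of activated mouse killer cells, had 2 UMIs in 2 Tdg_KO cells and 376 UMIs in 11 Tdg_WT cells, a ratio of 0.00657 (0.000792 to 0.0239). Gzme had 39 UMIs in 3 Tdg_KO cells and 106 in 8 Tdg_WT cells (0.454, and 0.0921 without the top cells). Gzmf had 14 UMIs in 2 Tdg_KO cells and 82 in 8 Tdg_WT cells (0.211, 0.110 to 0.374), and Gzmg 0 UMIs and 59 UMIs in 4 Tdg_WT cells. All 4 were higher in Tdg_WT, in few cells.

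Counted over cells, 6 of 80 Tdg_KO cells (7.50%, 2.80 to 15.6) and 18 of 94 Tdg_WT cells (19.1%, 11.8 to 28.6) had a UMI of Gzmd, Gzme, Gzmf or Gzmg. The intervals of these shares overlap. The top 3 cells held 49 of the 55 UMIs in Tdg_KO and 417 of the 623 in Tdg_WT, so the ratios rest on a few cells with high counts. In Eomes-positive NK cells these 4 genes together had 10 UMIs in 3 Tdg_KO cells and 5 UMIs in 5 Tdg_WT cells. Reads could be shared in part among them: 5.98% of 50-base windows from the last 400 bases of Gzmd stand in Gzme and 6.27% in Gzmf, against 0% between Gzmc and any of them. Over the 18 measured killing genes, 5 were at least 1.5-fold lower in Tdg_KO (Gzma at 0.647 and these 4) and only Serpinb9, a granzyme B inhibitor, higher (1.55). Prf1 had a ratio of 0.921 (0.727 to 1.16) and Gzmb of 0.804 (0.678 to 0.953).

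Ly49 genes were higher in Tdg_KO, in a few cells. Klra8 (Ly49H, known as a receptor for a cytomegalovirus protein) had 63 UMIs in 6 Tdg_KO cells and 2 UMIs in 1 Tdg_WT cell, a ratio of 38.9 (10.3 to 328). Klra9 had 70 UMIs in 9 Tdg_KO cells and 20 in 4 Tdg_WT cells (4.32, 2.60 to 7.50), and Klra7 60 UMIs in 6 and 28 in 6 cells (2.65, 1.66 to 4.30). In Eomes-positive NK cells the same genes had Tdg_KO over Tdg_WT ratios of 0.973, 0.812 and 0.830. The Klra7 ratio was 0.923 in cells with 0 UMIs of the Cd3 and phagocyte genes, so its direction rests on cells that held 1 such UMI. Klra8 and Klra9 share 12.5% to 14.5% of 50-base windows at their transcript ends, so reads could be split between them. Tdg_KO cells with 16 and 14 Klra8 UMIs had only 2 and 4 Gzmc UMIs, beside 11 and 172 of Gzma. Others with 23 and 8 Klra8 UMIs had 60 and 50 Gzmc UMIs, beside 9 and 0 of Gzma. All of these cells had 0 Tmem176b UMIs. Whether some are conventional NK cells in which no Eomes UMI was captured was not tested.

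Of 5 measured Ly49 genes 4 (Klra3, Klra7, Klra8 and Klra9) were at least 1.5-fold higher in Tdg_KO and 0 lower, with a median log2 ratio of 1.67 in ILC1-like cells and of -0.27 in NK cells. At least 3 UMIs over the Ly49 genes other than Klra5 were in 13 of 80 Tdg_KO cells (16.3%, 8.95 to 26.2) and 7 of 94 Tdg_WT cells (7.45%, 3.05 to 14.7). The shares were 85.5% and 82.3% in NK cells, and the intervals of the ILC1-like shares overlap. Of 13 measured conventional NK genes, 6 were at least 1.5-fold higher in Tdg_KO (among them the 4 Ly49 genes and the kinase Lyn) and Gzma lower.

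Cytokine genes were mostly lower in Tdg_KO where they differed. Of 12 measured, 4 were at least 1.5-fold lower and only Pdgfa, a growth factor for fibroblasts, higher (76 and 39 UMIs, 2.41, 1.61 to 3.64). Ifng (interferon-gamma) was at 166 CPM in Tdg_KO and 303 in Tdg_WT, a ratio of 0.546 (0.441 to 0.673) with 28.2% and 34.1% of its UMIs in the top cell. Csf2 (GM-CSF) had 6 UMIs in 6 Tdg_KO cells and 52 in 15 Tdg_WT cells (0.142, 0.0500 to 0.332), against a ratio of 1.27 in NK cells. Tnf (12 Tdg_KO and 55 Tdg_WT UMIs) and the chemokine Ccl1 (3 and 52) had 63.6% and 88.5% of their Tdg_WT UMIs in 1 cell. Xcl1, under the 1.5-fold limit, was at 3029 and 2200 CPM (1.38, 1.30 to 1.46).

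**Figure D5:**
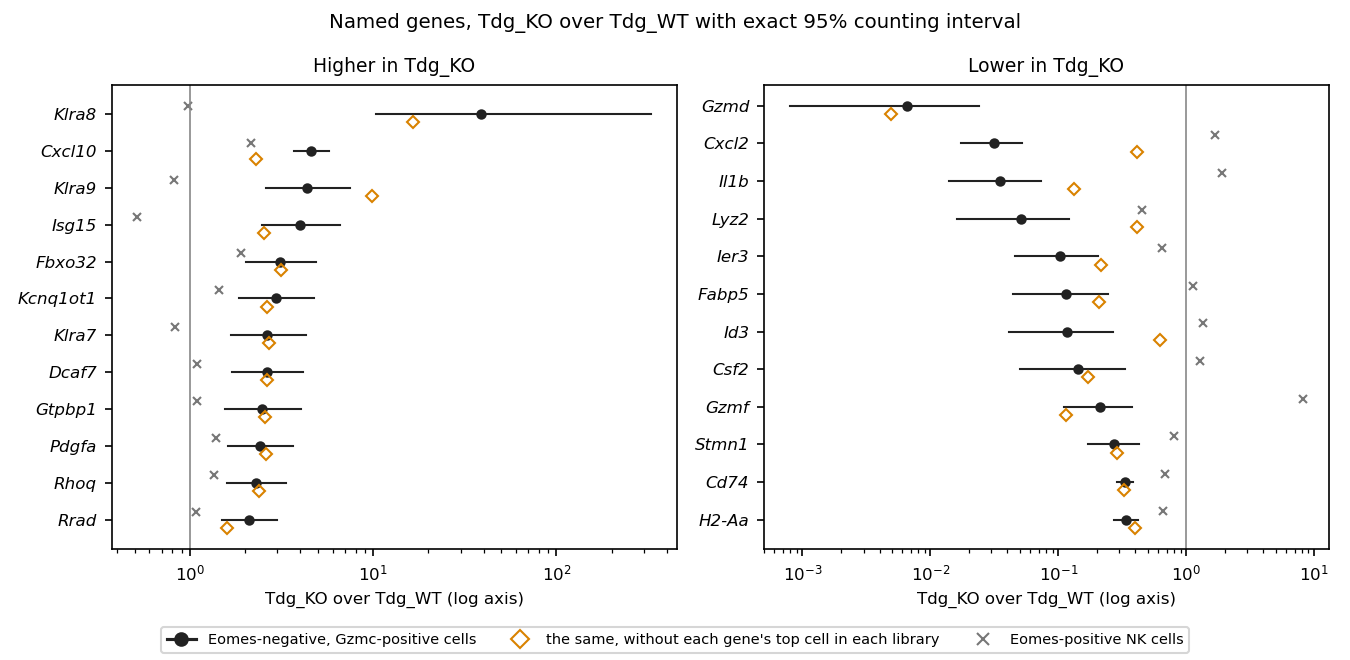
Ratio of Tdg_KO to Tdg_WT (log axis) for the 12 named genes in each direction in Eomes-negative, Gzmc-positive cells (black, with exact 95% counting intervals), the same without each gene's top cell in each library (orange diamonds), and in Eomes-positive NK cells (grey crosses). Gzmd is at 0.00657 with its top cells and 0.00494 without, while Cxcl2 is at 0.0314 with its top cell and at 0.412 without. The Klra8 diamond is a bound from 3 UMIs, since 0 Tdg_WT UMIs remain, and Gzmd has no cross, since 0 Tdg_KO UMIs were found in NK cells.

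The remaining named genes higher in Tdg_KO included interferon-response genes. Isg15, a ubiquitin-like protein induced by interferon, had 77 UMIs in 27 Tdg_KO cells and 24 in 14 Tdg_WT cells, a ratio of 3.96 (2.48 to 6.55), or 2.53 without the top cells. In NK cells its ratio was 0.516. Cxcl10, a chemokine for CXCR3-bearing lymphocytes, had 386 UMIs in Tdg_KO and 104 in Tdg_WT (4.58, 3.68 to 5.75), of which 1 Tdg_KO cell held 65.8%, and a ratio of 2.30 without the top cells. The type I interferon list as a whole was split, with 3 of 10 genes at least 1.5-fold higher (among them Isg15 and Irf7) and 3 lower. The lower ones were Ifitm2 (0.621), Ifitm3 (0.605) and Ly6a (0.535). A single Tdg_WT cell, with 142 H2-Aa UMIs, held 109 Ifitm2 and 104 Ifitm3 UMIs. No other Tdg_WT cell had more than 57 of Ifitm2 or 35 of Ifitm3, so these 2 ratios rest in part on that cell.

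Fbxo32, a ubiquitin ligase subunit induced by FOXO factors, had 78 UMIs in 34 Tdg_KO cells and 31 in 22 Tdg_WT cells (3.11, 2.02 to 4.87) and a ratio of 1.91 in NK cells. It was spread over many cells, with a ratio of 3.13 without the top cells. Dcaf7, Rhoq, Gtpbp1, Rrad and the imprinted noncoding RNA Kcnq1ot1 were 2.10-fold to 2.93-fold higher. Of 31 transcription factors, 4 were at least 1.5-fold higher (among them Foxo1, Nr4a2 and Nr4a3, 1.54-fold to 1.67-fold) and only Id3 lower (0.116), with 87.5% of its Tdg_WT UMIs in 1 cell. Itga1 was 1.81-fold higher (1.41 to 2.32), with 161 UMIs in 57 Tdg_KO cells and 110 in 53 Tdg_WT cells, against 1.23-fold in NK cells. Of 15 cytokine receptors, Il4ra was higher (1.61) and Il7r lower (0.628, 0.452 to 0.864). Over all 4136 genes, 6.84% were higher and 3.77% lower, close to these receptor counts. Of 14 TGF-beta genes, 3 were higher (Itga1, the receptor Tgfbr2 at 1.60 and the inhibitor Ski at 1.58) and 0 lower.

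Several genes that were lower in Tdg_KO are genes of phagocytes, neutrophils and dendritic cells. At least 10 UMIs over 31 such genes were found in 5 Tdg_KO and 13 Tdg_WT ILC1-like cells, which held 60.2% and 92.0% of those UMIs. Neutrophil genes summed to 15.2 CPM in Tdg_KO and 313 in Tdg_WT, macrophage genes to 380 and 502, and dendritic cell genes to 325 and 801. Of their defining genes, C1qc, Adgre1, Cxcr2 and Clec9a were at 0. Cxcl2 (15 and 590 UMIs), Il1b (7 and 248), Lyz2 (5 and 122), Fabp5 (7 and 76) and Ier3 (9 and 108) had ratios of 0.0314 to 0.114. Without those 5 and 13 cells the ratios were 1.00 for Cxcl2, 0.927 for Il1b, 0.492 for Lyz2, 0.601 for Fabp5 and 1.73 for Ier3. Cxcl2, Il1b and Lyz2 are among the 31 genes by which the cells were left out, so their ratios move towards 1 in part by construction.

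The class II genes are in the same position. Cd74, the invariant chain, had 231 UMIs in 36 Tdg_KO cells and 859 in 55 Tdg_WT cells (0.332, 0.286 to 0.384), and H2-Aa 108 UMIs in 17 and 392 in 29 cells (0.340, 0.272 to 0.422). Without the 5 and 13 cells the ratios were 0.643 and 0.554 (H2-Aa is also among the 31 genes), and in NK cells they were 0.684 and 0.653. The granzyme and Ly49 ratios stayed closer to their first values without those cells, at 0.0061 for Gzmd, 0.189 for Gzmf, 34.1 for Klra8 and 3.79 for Klra9. The part of phagocytes, neutrophils and dendritic cells in these differences was not tested. Leaving out these cells or the top cells was chosen after the values were seen.

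Metabolic and cell cycle genes completed the comparison. Of 18 hypoxia and glycolysis genes, 4 were at least 1.5-fold lower in Tdg_KO (Eno1 at 0.539, Pkm, Pgam1 and Pfkp) and only the hexokinase Hk2 higher (1.96). The list's median log2 ratio was -0.22, and -0.11 in NK cells. Stmn1, a microtubule regulator of dividing cells, had 25 UMIs in 13 Tdg_KO cells and 113 in 21 Tdg_WT cells (0.273, 0.170 to 0.424). It was the only 1 of 6 proliferation genes past 1.5-fold, and 0 of 15 MHC class I genes passed. Pdcd1, the inhibitory receptor PD-1, was the only 1 of 16 checkpoint genes to pass, with 27 UMIs in 7 Tdg_KO cells and 79 in 23 Tdg_WT cells (0.422, 0.262 to 0.661). Of 23 handling-stress genes, Fos (1.54) and Hsp90aa1 (1.55) were higher and Ier3 lower, beside median mitochondrial shares of 2.53% in Tdg_KO and 1.79% in Tdg_WT ILC1-like cells. These stress gene counts are close to the shares over all 4136 genes, 6.84% higher and 3.77% lower.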

How the data were processed

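The authors deposited matrices of UMI counts without normalisation. Per the file headers, Cell Ranger 6.0.1 wrote them. Seurat and mm10 also stand in the submitters' processing notes, with no role. Annotation, strand use and any doublet removal were not given in these sources, and no doublet caller was run.

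Of 32285 listed genes, 78 entries sharing a symbol were summed, leaving 32245. Cells were gated on UMI counts as the report states, counts were summed per library and group and divided by the group's total, and genes with at least 50 UMIs were compared at 1.5-fold. Intervals are exact conditional Poisson for ratios, Clopper-Pearson for shares and Katz for share ratios (Python 3.11.15, scipy 1.17.1, numpy 2.4.6, pandas 2.3.3); bounds for 0 UMIs use 3 UMIs. The ratio and thinning steps were tested on simulated data. With 1 library per genotype, no p-value was computed. The ILC1-like cells held 791472 UMIs in Tdg_KO and 977114 in Tdg_WT.

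Named genes had at least 50 UMIs and 5% of cells in the higher group and were ranked by the interval bound nearest to 1, 12 each way between genotypes and 15 each way against NK cells; genes of the gate, mitochondrial, ribosomal and haemoglobin genes, antigen receptor and sex-linked genes, and unnamed gene models were left out of this rank. List members with most UMIs or extreme ratios were also named. The cells and the 25 gene lists were chosen with earlier results of these data known. Alternatives were depth thinning, other gates, filters, scalings and left-out cells. Sequences and motif searches used RefSeq and GENCODE tables of GRCm38. Some genes are not reported here.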

Additional observations from a re-analysis of the deposited data

Results flagged for a closer look

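Among genes named or on the gene lists, 5 lay above Eomes-positive NK cells in 1 library and below them in the other, with counting intervals on opposite sides of 1. The difference between the libraries was not tested. All 5 were named for their ratio between genotypes in these same cells, so opposite ratios to NK cells were in part built in. Isg15 had a ratio to NK cells of 4.32 in Tdg_KO and 0.563 in Tdg_WT, with 49.4% of its Tdg_KO UMIs in 1 cell. Cxcl2 had ratios of 0.0894 in Tdg_KO and 4.78 in Tdg_WT, with 92.9% of its Tdg_WT UMIs in 1 cell. Il1b had 0.0588 in Tdg_KO and 3.18 in Tdg_WT (77.4% in 1 cell), Lyz2 0.365 and 3.27 (90.2%), and Fabp5 0.332 and 3.28 (60.5%). These 5 are among 29 genes of 5743 that were at least 1.5-fold apart from NK cells in opposite directions. Of the 29, Basp1, D10Wsu102e, Peg13, Rgs10 and Spg7 also had intervals on opposite sides of 1 but were neither named nor on a list.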

How the results depend on the processing

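Of 62 alternatives to the share of cells and the 4 gene counts, 53 stayed within the limits set and 9 moved; the cause was not tested. Thinned to 2000 UMIs per cell, 783 genes were at least 1.5-fold higher in Tdg_KO and 614 lower. With a minimum of 20 UMIs in place of 50, which admits genes with fewer counts, these numbers were 780 and 513, and 564 genes were higher than in NK cells in both libraries. With each library alone, which needs no second library to pass, 614 to 738 genes were higher than in NK cells and 835 to 979 lower. The share ratio stayed between 0.760 and 0.923, the higher end with cells thinned to 2000 UMIs before the gate. Of 264 gene values between genotypes 3 turned direction: Klra7 was 0.923 in cells with 0 UMIs of the Cd3 and phagocyte genes, and Cxcl2 was 1.00 and Ier3 1.73 without cells with 10 or more UMIs of phagocyte, neutrophil and dendritic cell genes, of which Cxcl2 is 1. That alternative and the one leaving out top cells were chosen after seeing the data. Of 600 gene values against NK cells and 527 list medians, 0 turned direction. Without turning, 42 of the 264 gene values between genotypes, 94 of the 600 and 182 of the 527 moved outside the limits set. Of the 24 named genes between genotypes, 5 fell under 1.5-fold in at least 1 alternative. Gene ratios on few UMIs in few cells (Gzmd, Gzmg, Klra8) have wide counting intervals or only a bound. No paired analysis was possible because each genotype has 1 library.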
